A study of Homo sapiens with 6 samples.

Results

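The AP-1 and immediate early genes examined here are 10 genes, FOS, FOSL1, FOSL2, JUN, JUNB, JUND, EGR1, IER2, DUSP1 and DUSP6. They were taken by symbol as a list, with no threshold on their values, and 10 of the 10 had a row among the 10487 genes of the deposited table. Expression was compared between 3 libraries of MDAMB468-VHP-IGFBP2 cells (genotype IGFBP2 overexpression, untreated) and 3 libraries of control MDAMB468 cells (genotype WT, untreated), a line established from a human breast cancer that lacks hormone receptors and HER2 amplification. The IGFBP2 overexpression cells stably carry dCas9-VHP, a Cas9 without cutting activity that is fused to transcriptional activators, and a guide RNA to the IGFBP2 gene, both delivered by lentivirus and followed by antibiotic selection and sorting of fluorescent cells. Whether the control cells carry the activator is not given in the sources used here, so IGFBP2 activation, the activator itself and the selection and sorting steps cannot be told apart. The labels call the libraries biological replicates of 1 cell line without naming separate cultures, so p-values measure the spread between these libraries.

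AP-1 is a dimer of a JUN protein with a FOS protein or with another JUN protein, joined through leucine zippers, and it binds the DNA sequence TGANTCA. Many of these genes belong to the immediate early class, whose mRNAs appear within minutes of growth factor or stress signals without new protein synthesis and are then quickly degraded. Signals from receptors such as EGFR pass through RAS and the ERK kinases to SRF and its ETS partners on promoters of genes such as EGR1 and FOS, and DUSP phosphatases, made in response, remove phosphate from the kinases again.

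Control replicates 1, 2 and 3 held IGFBP2 at 93.5, 87.3 and 136 CPM (read counts scaled to a common library size), against 566, 1176 and 498 CPM in the 3 replicates of activated cells, and every library of the activated cells was above every control library. Each library held between 2497353 and 4579587 reads on the listed genes. The CPM are those of 3′ end sequencing and are not divided by gene length, so levels are compared here between libraries and not between genes. Of 12 basal breast epithelial markers, 11 were measured, among them EGFR, at 937 ± 176 CPM in control and 1262 ± 134 CPM in IGFBP2 overexpression cells (SD, n = 3 each), and KRT5, at 346 ± 114 and 480 ± 94.0 CPM. None of these 11 differed at an adjusted p-value under 0.05 (limma), 5 had a higher and 6 a lower mean log2 value (median log2 fold change -0.089), and 1, KRT7, was lower at an unadjusted p-value under 0.05 (807 ± 70.8 and 590.1 ± 93.4 CPM), where 13% of all genes differed in either direction. Of 12 immune, stromal and endothelial markers only COL1A1 was measured, at 9.36 to 27.5 CPM, and of 4 hormone receptor genes only ERBB2, at 15.8 to 37.0 CPM.

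The sequences just before the transcription start of 4 members are shown because elements of this kind are a known route for growth factor signals. The 4 were picked after their values were seen. EGR1, FOS and DUSP1 were lowest in replicates 1 and 2 of the activated cells, and JUND lay at one level in all 3 of them. A link between the elements and these values was not tested. The sequences are the 250 bases before the start in RefSeq (GRCh38.p14), 5′ to 3′ in the direction of the gene. Capitals mark CArG boxes, the binding site of SRF, and the letters TGACG, the core of the cAMP response element, on either strand (CGTCA where the match is on the other strand). EGR1 lies at chr5:138465229-138465478 (plus strand), FOS at chr14:75278578-75278827 (plus strand), DUSP1 at chr5:172771196-172771445 (minus strand) and JUND at chr19:18281623-18281872 (minus strand).
EGR1: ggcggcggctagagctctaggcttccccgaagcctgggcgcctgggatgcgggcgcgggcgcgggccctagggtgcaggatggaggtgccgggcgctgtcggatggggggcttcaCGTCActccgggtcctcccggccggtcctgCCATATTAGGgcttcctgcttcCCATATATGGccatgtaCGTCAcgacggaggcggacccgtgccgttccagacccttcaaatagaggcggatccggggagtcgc
FOS: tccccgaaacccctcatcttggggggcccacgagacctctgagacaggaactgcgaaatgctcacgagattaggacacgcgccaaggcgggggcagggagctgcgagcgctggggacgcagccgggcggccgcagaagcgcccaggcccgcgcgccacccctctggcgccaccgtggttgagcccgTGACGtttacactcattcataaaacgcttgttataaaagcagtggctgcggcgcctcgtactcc
DUSP1: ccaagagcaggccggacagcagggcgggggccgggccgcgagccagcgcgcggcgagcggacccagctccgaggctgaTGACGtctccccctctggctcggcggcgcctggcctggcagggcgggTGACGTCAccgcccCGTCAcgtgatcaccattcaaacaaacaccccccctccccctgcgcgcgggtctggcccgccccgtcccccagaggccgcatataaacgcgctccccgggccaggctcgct
JUND: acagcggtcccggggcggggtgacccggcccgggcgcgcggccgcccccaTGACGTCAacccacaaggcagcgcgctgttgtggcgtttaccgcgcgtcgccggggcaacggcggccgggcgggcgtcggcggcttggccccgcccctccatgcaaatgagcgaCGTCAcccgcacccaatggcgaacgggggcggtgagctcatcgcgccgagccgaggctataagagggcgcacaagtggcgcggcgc

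A promoter entry was found for 9 of the 10 members, FOSL1 being the exception. With both strands searched over these 250 bases, TGACG was found in 8 of the 9 (FOS, FOSL2, JUN, JUNB, JUND, EGR1, IER2 and DUSP1), beside 21.2% of all 35116 promoter entries. The full element TGACGTCA, which holds TGACG on each strand, was found in JUND and DUSP1 (2 of 9, beside 1.65% of all entries). Within this window CArG boxes were found in EGR1 alone, where they lie 105 to 96 and 83 to 74 bases before the start (1.16% of all entries). Sequence further upstream was not searched, so sites there are not counted for any member. The AP-1 site TGANTCA was found in 0 of the 9, beside 6.57% of all entries.

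To ask whether IGFBP2 activation was accompanied by a change in these genes, each member was compared between the groups with limma on the deposited log2(CPM + 1) values, with p-values adjusted over all 10487 genes. None of the 10 members passed an adjusted p-value of 0.05, where 0.629% of all genes did. The mean of 9 of the 10 was lower in IGFBP2 overexpression cells and only that of FOSL1 was higher, and the median log2 fold change was -0.51, beside 9.8e-05 over all genes. Among the 9, DUSP1 passed the authors' filter of 5 CPM through the control cells only. Its direction was thus set by that filter. At an unadjusted p-value under 0.05, JUNB, EGR1, JUND and IER2 were lower (4 of 10, beside 6.12% of all genes), and no member was higher. With 1 library left out, the members at this level in either direction numbered 5, 2 and 2 of 10 without control replicates 1, 2 and 3, beside 13.5%, 12.9% and 11.9% of all genes. They numbered 1, 0 and 6 without IGFBP2 overexpression replicates 1, 2 and 3, beside 9.29%, 9.1% and 12.3%, so that without replicate 1 or 2 the members were near or below the share of all genes. Under other settings with all 6 libraries they numbered 7 with a mean-variance trend, 6 with a pseudocount of 5 and 5 with limma voom, beside 13.4%, 13.3% and 13% of all genes, FOSL1 being higher and the others lower in each. Fewer cells with a transcript and less of it per cell cannot be told apart in these bulk libraries. Libraries of the same group differed widely in FOS, DUSP1, EGR1 and FOSL1. In FOS, DUSP1, EGR1 and IER2, IGFBP2 overexpression replicate 3 stood apart from replicates 1 and 2, but not in FOSL1, FOSL2, JUND or DUSP6.

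**Figure D1:**
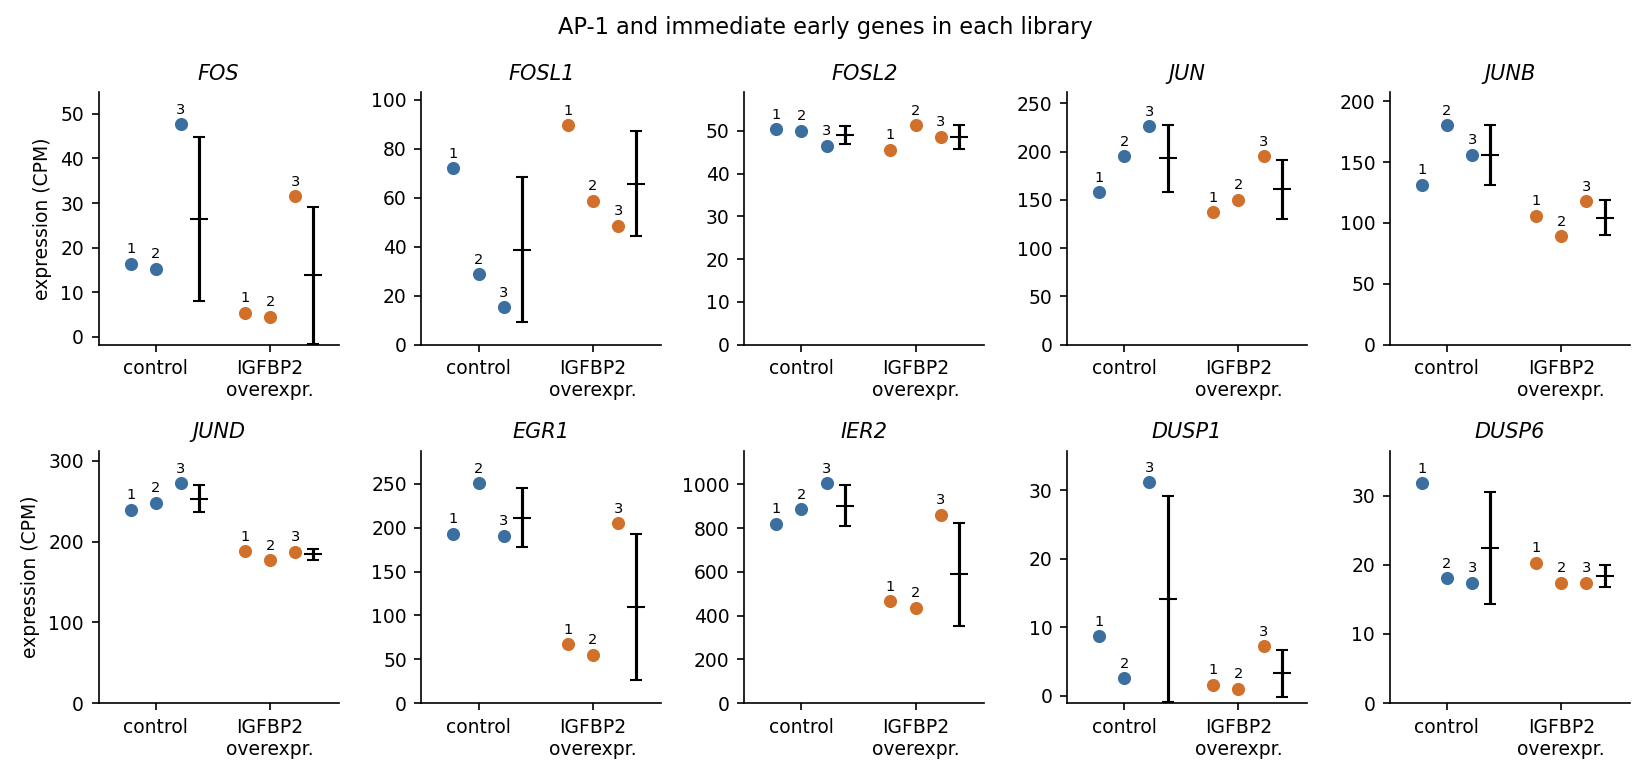
Expression in CPM (linear axes) of the 10 members in each library, with control libraries in blue, IGFBP2 overexpression libraries in orange, the replicate number above each point, and bars for the mean ± SD of 3 libraries. In EGR1 and IER2 the third IGFBP2 overexpression library lies among the controls while the other two lie far below them, and in JUNB and JUND the groups do not overlap.

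The FOS family was represented by FOS, FOSL1 and FOSL2. FOS (ENSG00000170345, chr14:75278826-75282230), the founding partner of JUN in AP-1, was at 16.4, 15.3 and 47.7 CPM in control replicates 1, 2 and 3, against 5.46, 4.52 and 31.5 CPM in the replicates of IGFBP2 overexpression cells in the same order. The first 2 libraries of the activated cells were the lowest of the 6, the third was above 2 of the controls, and the groups overlapped. The highest control library held 3.12 times the lowest, and the highest IGFBP2 overexpression library 6.98 times the lowest. The mean was 26.5 ± 18.4 CPM in control and 13.8 ± 15.3 CPM in IGFBP2 overexpression cells (SD, n = 3 each), a difference of -1.19 on the log2 scale (standard error 0.67, adjusted p = 0.495). The values rest on 14 reads in each of the lowest libraries and on 118 in the highest.

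FOSL1 (ENSG00000175592, chr11:65892049-65900573), which encodes FRA-1, a FOS relative whose mRNA and protein depend on sustained ERK signalling, ran the other way. It was at 71.9, 28.6 and 15.4 CPM in the control replicates and at 89.7, 58.7 and 48.6 CPM in the IGFBP2 overexpression replicates. Control replicate 1 lay within the range of the activated cells, and the other controls lay below it. On the log2 scale the difference was 0.97 (95% interval -0.12 to 2.07, adjusted p = 0.437). It was 0.47 without control replicate 3 and 1.55 without control replicate 1, and FOSL1 passed the threshold in neither fit.

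FOSL2 (ENSG00000075426, chr2:28392448-28417317), encoding FRA-2, was the steadiest member. Its values were 50.4, 50.1 and 46.5 CPM in control and 45.6, 51.3 and 48.6 CPM in IGFBP2 overexpression cells. The groups covered the same range, and the log2 fold change of -0.014 had a 95% interval from -0.40 to 0.37, which holds changes of either sign.

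The means of FOS and FOSL1 lay on opposite sides of their controls, and their ratio within a library, from which gene length cancels when libraries are compared, spread over more than either gene alone. FOSL1 was 4.38, 1.87 and 0.32 times FOS in control replicates 1, 2 and 3, and 16.4, 13.0 and 1.54 times FOS in IGFBP2 overexpression replicates 1, 2 and 3. Replicates 1 and 2 of the activated cells had the highest ratios, while replicate 3 was below 2 of the controls. The ratio was looked at after the values of both genes were seen and was not tested. FOSB, the remaining FOS gene and not a member, added after its values were seen, was at 18.0, 10.8 and 58.6 CPM in control and 3.90, 4.84 and 58.8 CPM in IGFBP2 overexpression cells, so that replicates 1 and 2 of the activated cells were again the lowest of the 6 libraries and replicate 3 was level with the highest control.

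**Figure D2:**
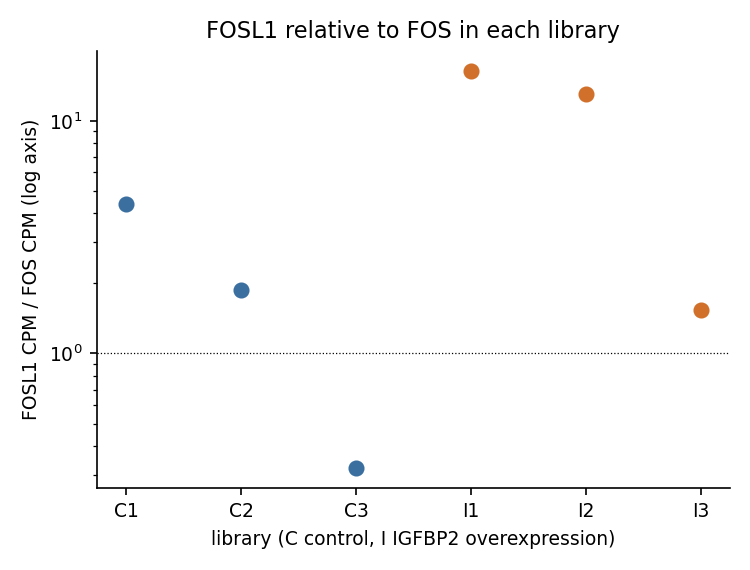
Ratio of FOSL1 CPM to FOS CPM in each library on a log axis, with control libraries (C1 to C3) in blue and IGFBP2 overexpression libraries (I1 to I3) in orange, and a dotted line at equal CPM. The ratio runs from 0.32 in control replicate 3 to 16.4 in IGFBP2 overexpression replicate 1, and IGFBP2 overexpression replicate 3, at 1.54, lies between the controls.

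The JUN genes, which supply the partner that every AP-1 dimer needs, were all lower in mean. The groups did not overlap, with the activated cells lower, in 2 of the 10 members, JUNB and JUND, beside 8.61% of all genes. JUNB (ENSG00000171223, chr19:12791486-12793315), an early induced member that can also restrain JUN, was at 131, 180 and 156 CPM in control and at 106, 89.1 and 118 CPM in IGFBP2 overexpression cells. Every library of the activated cells lay below every control library. The mean was 156 ± 24.5 CPM in control and 104 ± 14.5 CPM in IGFBP2 overexpression cells (SD, n = 3 each), a log2 difference of -0.57 (standard error 0.20, adjusted p = 0.289).

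JUND (ENSG00000130522, chr19:18279694-18281622), the JUN gene that is expressed in most resting cells, was at 240, 248 and 272 CPM in control and at 188, 177 and 188 CPM in IGFBP2 overexpression cells. All 3 libraries of the activated cells, replicate 3 included, sat in a narrow band below the controls. JUND was the second steadiest member after FOSL2, with a pooled within-group SD of 0.076 on the log2 scale, beside a median of 0.27 over all genes. Its log2 fold change was -0.46 (standard error 0.17, adjusted p = 0.305), and the exact permutation test over the 6 libraries gave p = 0.1 for JUND and for JUNB (two-sided), the smallest value that 3 libraries against 3 allow. Groups that did not overlap, with the activated cells lower, were found for 2 of 10 members and for 8.61% of all genes.

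JUN (ENSG00000177606, chr1:58776845-58784048), which encodes c-Jun, was at 158, 195 and 226 CPM in control and at 137, 150 and 195 CPM in IGFBP2 overexpression cells. Replicates 1 and 2 of the activated cells were the lowest of the 6 libraries, and replicate 3 was level with the middle control. The log2 fold change of -0.26 had a 95% interval from -0.76 to 0.23 (adjusted p = 0.676). It was -0.14 without control replicate 3 and -0.41 without IGFBP2 overexpression replicate 3.

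Of the other immediate early factors, EGR1 showed the sharpest split. EGR1 (ENSG00000120738, chr5:138465479-138469303), a zinc finger transcription factor induced through CArG boxes such as those shown above, was at 193, 250 and 191 CPM in control and at 67.4, 55.2 and 205 CPM in IGFBP2 overexpression cells. Replicates 1 and 2 of the activated cells were far below all controls, while replicate 3 was above 2 of them. The mean was 211 ± 33.8 CPM in control and 109 ± 83.2 CPM in IGFBP2 overexpression cells (SD, n = 3 each), a log2 difference of -1.19 (standard error 0.43, adjusted p = 0.294). Without IGFBP2 overexpression replicate 3 the log2 fold change was -1.76 (standard error 0.23, adjusted p = 0.0276 from limma), and EGR1 was then the only member to pass the threshold (1 of 10, beside 0.477% of all genes). That library was singled out after its values were seen, and without replicate 1 or replicate 2 of the activated cells the log2 fold change was -0.97 or -0.83. Over the 15 alternatives run, the adjusted p of EGR1 ranged from 0.0276 to 0.623.

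IER2 (ENSG00000160888, chr19:13150411-13154911), a nuclear protein made early after growth factor signals, followed EGR1. It was at 819, 885 and 1004 CPM in control and at 467, 435 and 861 CPM in IGFBP2 overexpression cells. Again replicates 1 and 2 were the lowest and replicate 3 lay inside the control range. With all libraries the log2 fold change was -0.68 (standard error 0.27, adjusted p = 0.335), and without replicate 3 of the activated cells it was -0.99 (standard error 0.21, adjusted p = 0.1004). Without replicate 1 or replicate 2 of the activated cells it was -0.55 or -0.50. With 1198 to 3690 reads per library, IER2 was the most deeply read member.

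The members that act as inhibitors were the phosphatases DUSP1 and DUSP6. DUSP1 (ENSG00000120129, chr5:172768096-172771195), which inactivates the p38, JNK and ERK kinases in the nucleus, was at 8.66, 2.50 and 31.1 CPM in control and at 1.56, 0.97 and 7.23 CPM in IGFBP2 overexpression cells. The groups overlapped, control replicate 3 was far above every other library, and the highest control held 12.4 times the lowest. With all 6 libraries DUSP1 had the largest log2 fold change of the 10, -1.57, but also the largest standard error, 0.77 (adjusted p = 0.430). Without control replicate 3 it was -0.75, where EGR1 was at -1.25. Only 4 and 3 reads lie behind the values of replicates 1 and 2 of the activated cells, so counting error is large there. The authors kept genes averaging over 5 CPM in at least 1 condition, which DUSP1 met in control only (means of 14.1 and 3.25 CPM). A gene this low in the activated cells is present only if higher in control, so its direction was set by the filter.

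DUSP6 (ENSG00000139318, chr12:89347235-89352501), a cytoplasmic phosphatase specific for ERK and itself an ERK target, was at 31.7, 18.1 and 17.4 CPM in control and at 20.3, 17.4 and 17.4 CPM in IGFBP2 overexpression cells. Apart from control replicate 1, all libraries lay close together. The log2 fold change was -0.22 (95% interval -0.79 to 0.34), and without control replicate 1 it was 0.045.

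**Figure D3:**
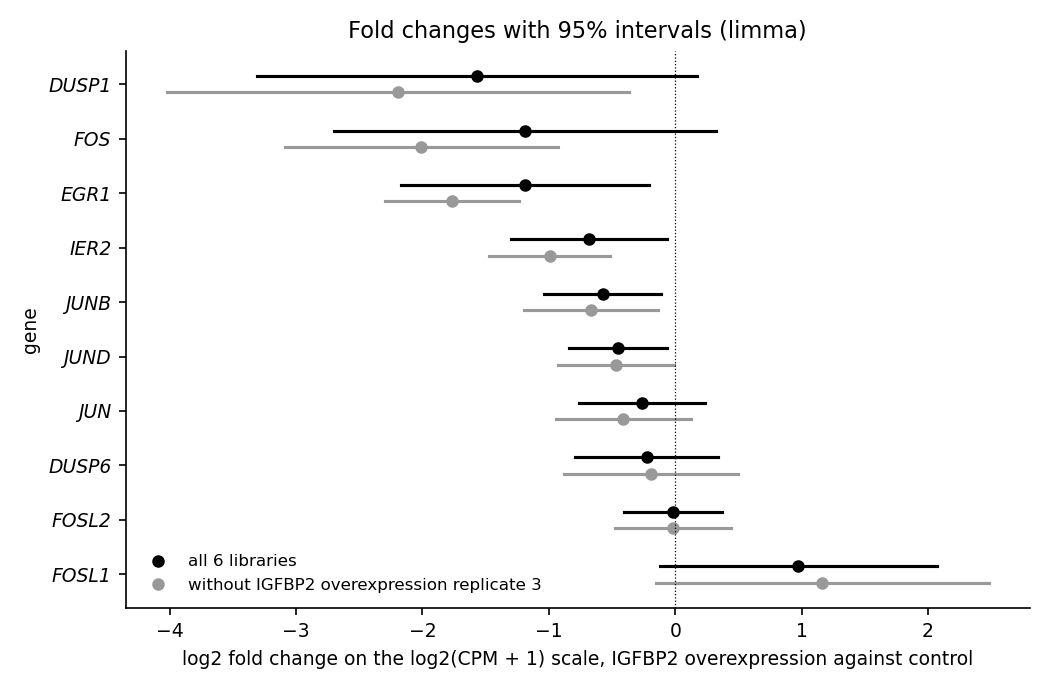
Log2 fold change of each member (dot) on the log2(CPM + 1) scale with its 95% interval (line) from limma, with all 6 libraries in black and without IGFBP2 overexpression replicate 3 in grey. The estimates of 9 of the 10 members lie below 0, and leaving out the library moved FOS from -1.19 to -2.01 and EGR1 from -1.19 to -1.76 while JUND stayed at -0.46 and -0.47. Leaving out replicate 1 or replicate 2 instead (not drawn) moved FOS to -0.84 or -0.73 and EGR1 to -0.97 or -0.83. DUSP1 passed the authors' filter of 5 CPM only through the control cells.

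Because replicate 3 of the IGFBP2 overexpression cells recurred in these values, the order of libraries was counted for all genes, a count chosen after the members were seen and not tested. Replicates 1 and 2 of the activated cells were the lowest of the 6 libraries in FOS, JUN, JUNB, EGR1, IER2 and DUSP1, 6 of the 10 members, beside 9.78% of all genes. In 5 of these 6, all but JUNB, replicate 3 lay within the control range as well, so both held in 5 of the 10 members, beside 4.98% of all genes. Among the 1026 genes of the table with replicates 1 and 2 lowest, 522 had replicate 3 within the control range. DUSP1 is counted in both the 6 and the 5, and its direction was set by the authors' filter. Replicate 3 lay within the control range in 8 of the 10, beside 49.7% of all genes, and the 8 include FOSL2 and DUSP6, in which the other replicates of the activated cells lay close to the controls too. In IGFBP2 itself replicate 3 was the lowest of its group at 498 CPM, close to the 566 CPM of replicate 1. Mitochondrial transcripts took 8.06% of CPM in replicate 3, beside 8.29% and 7.20% in replicates 1 and 2 and 7.31 to 8.55% in the controls, and replicate 3 correlated with replicates 1 and 2 across genes at 0.965 and 0.966, beside 0.976 between those replicates and 0.9501 to 0.9575 between controls, so it was closer to its group than the controls were to each other (Pearson's r over genes, which are not independent replicates). Without replicate 3, a library singled out after its values were seen, the members at an unadjusted p-value under 0.05 were FOS, JUNB, JUND, EGR1, IER2 and DUSP1 (6 of 10, DUSP1 with its direction set by the filter, beside 12.3% of all genes), whereas without replicate 2 there were 0 and without replicate 1 there was 1.

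The order of libraries was also looked for in 36 other immediate early genes that were measured, of 47 listed. Replicates 1 and 2 of the activated cells were the lowest in 9 of them, beside 9.78% of all genes, named here after their values were seen. In 5 of the 9 (ID2, NR4A1, CCN1, MCL1 and NR4A2) replicate 3 lay within the control range, and in the other 4 (HES1, GADD45B, ZFP36L2 and TRIB1) it lay below every control. Both conditions thus held in 5 of the 36 genes, beside 4.98% of all genes. The 5 of 9 is near the share over the whole table, where 522 of the 1026 genes lowest in replicates 1 and 2 had replicate 3 within the control range. NR4A1, an orphan nuclear receptor induced with FOS, was at 17.5, 10.01 and 38.8 CPM in control and at 4.68, 1.29 and 18.4 CPM in IGFBP2 overexpression cells (log2 fold change -1.67, adjusted p = 0.373), and its log2 fold change was -0.94 without replicate 2 of the activated cells and -2.48 without replicate 3. Like FOS, it was lowest in replicates 1 and 2 of the activated cells and within the control range in replicate 3.

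**Figure D4:**
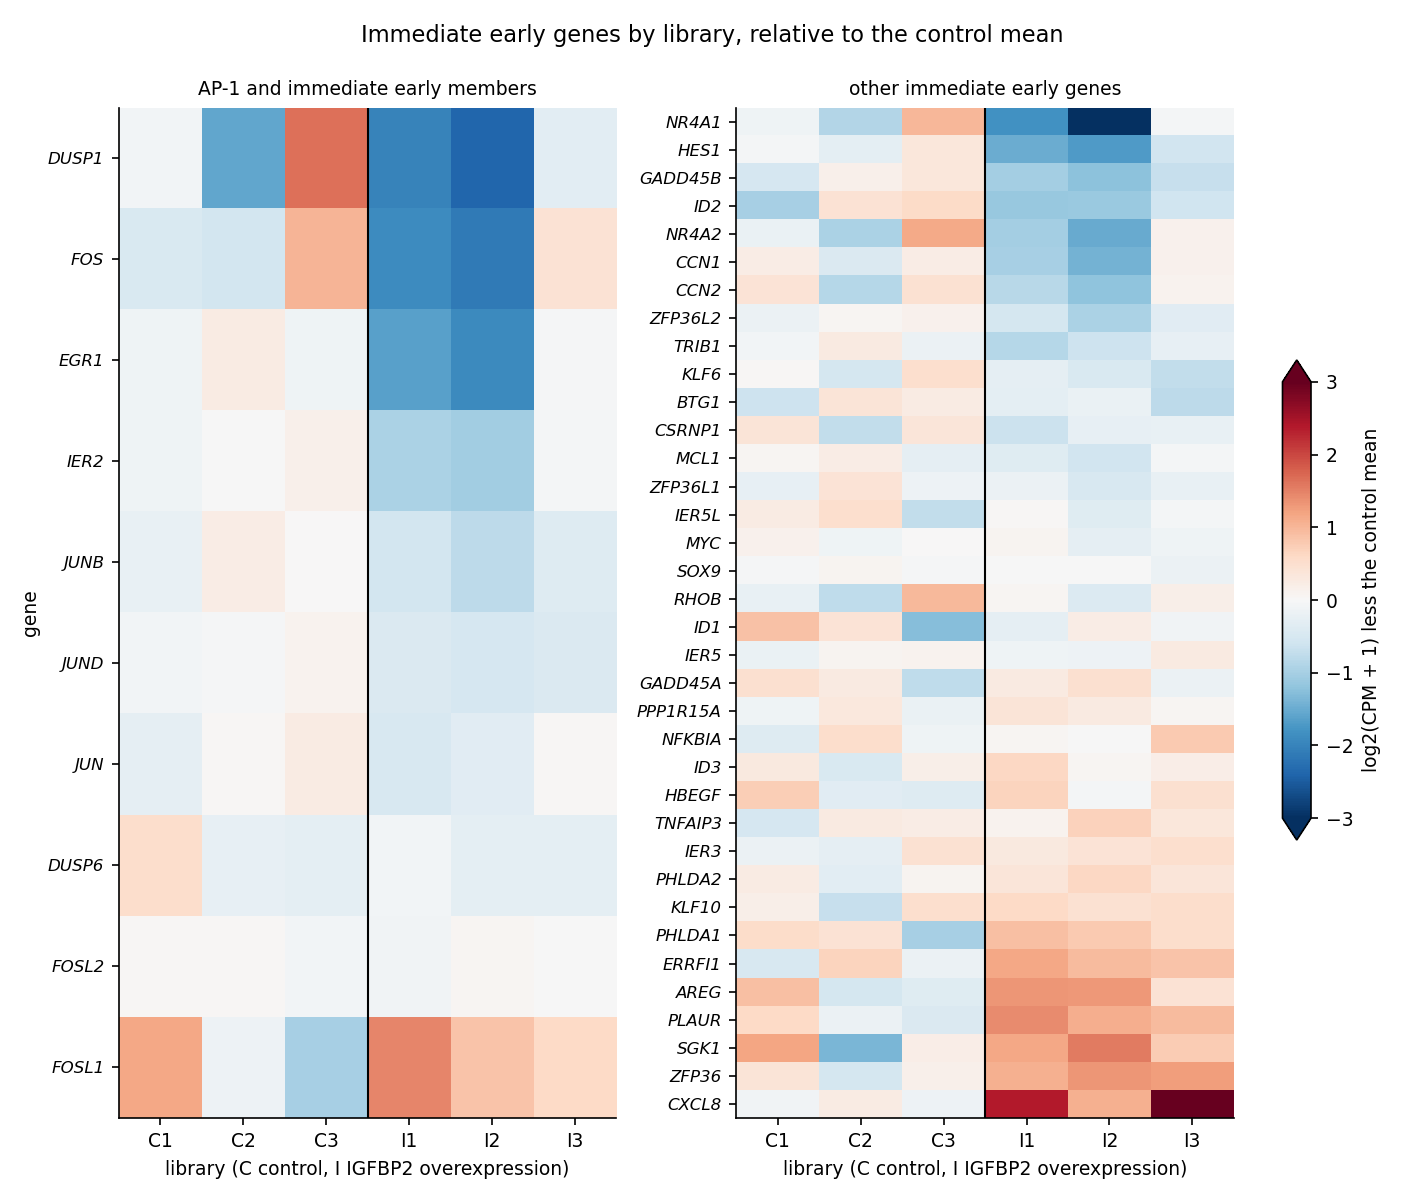
Difference of log2(CPM + 1) from the mean of the 3 control libraries for the 10 members (left) and 36 other immediate early genes (right), in control libraries C1 to C3 and IGFBP2 overexpression libraries I1 to I3, with blue below and red above the control mean and the scale ending at 3 on either side. Blue in I1 and I2 with pale colour in I3 is seen for FOS, EGR1, IER2 and NR4A1, while FOSL1, PLAUR and CXCL8 are red in all of I1 to I3. CXCL8 passed the authors' filter of 5 CPM only through the activated cells.

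The other immediate early genes lay on both sides of the controls. None of the 36 passed the adjusted threshold, 5 were higher and 6 lower at an unadjusted p-value under 0.05 (beside 6.88% and 6.12% of all genes), and the median log2 fold change was -0.055. With a mean-variance trend 3 of the 36 passed (1 higher, 2 lower), and 2 passed with limma voom, with a pseudocount of 5 and without control replicate 1. The groups did not overlap in 5 genes with the activated cells higher, beside 9.43% of all genes, and in 4 with them lower, beside 8.61%. The smallest p-values belonged to CXCL8, ZFP36, PLAUR and HES1. CXCL8, the neutrophil chemokine interleukin 8, was at 0.44, 0.83 and 0.40 CPM in control and 7.02, 2.26 and 12.2 CPM in IGFBP2 overexpression cells (log2 fold change 2.18, adjusted p = 0.0843), and its control values are 1 to 3 reads a library. ZFP36, which binds AU-rich elements and speeds the decay of early mRNAs, had a log2 fold change of 1.21 (adjusted p = 0.0933). CXCL8 (means of 0.56 and 7.14 CPM) and ZFP36 (2.59 and 7.07 CPM) passed the authors' filter of 5 CPM only through the activated cells. Their direction was thus set by the filter. Both are counted above among the 5 genes higher at an unadjusted p-value under 0.05 and among the 5 higher without overlap. PLAUR, the urokinase receptor, had one of 1.16, and HES1, a repressor downstream of Notch, one of -1.26 (adjusted p = 0.141 for each).

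Among the other partners of AP-1 and related leucine zipper factors, 21 of 23 were measured and 1 passed the threshold, where 0.629% of all genes did. At an unadjusted p-value under 0.05, 1 was higher and 0 lower, beside 6.88% and 6.12% of all genes, and the median log2 fold change was -0.10. BATF3, a small factor that pairs with JUN proteins, rose from 1.55, 2.23 and 2.02 CPM in control to 5.07, 4.84 and 5.91 CPM in IGFBP2 overexpression cells (log2 fold change 1.10, standard error 0.19, adjusted p = 0.0433). These are 5 to 18 reads per library, and BATF3 did not pass in 10 of the 14 alternatives that gave a value, among them each of the 6 fits without a library. With means of 1.93 and 5.27 CPM, BATF3 passed the authors' filter of 5 CPM only through the activated cells. A gene this low in control is present only if higher in the activated cells, so its direction was set by the filter. None of the other 20 passed, and the next smallest p-values were those of JDP2 (-0.48), ATF4 (-0.42) and MAFG (0.37), given as log2 fold changes.

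In the group of ERK inhibitors and ERK outputs, 21 of 26 were measured and 1 passed, where 0.629% of all genes did. At an unadjusted p-value under 0.05, 3 were higher and 1 lower, beside 6.88% and 6.12% of all genes, and the median log2 fold change was -0.013. DUSP9, a phosphatase of ERK related to DUSP6, rose from 0.89, 0.83 and 2.02 CPM to 8.97, 6.13 and 8.21 CPM (log2 fold change 1.99, standard error 0.25, adjusted p = 0.0155), and it did not pass in 1 of 14 alternatives, without IGFBP2 overexpression replicate 1 (adjusted p = 0.0661). The control values of DUSP9 are 3 to 5 reads a library. Its means were 1.25 and 7.77 CPM, so it too passed the filter only through the activated cells, and its direction was set by that filter. SPRY1, an inhibitor of receptor tyrosine kinase signalling, was at 18.6, 33.7 and 34.0 CPM in control and 10.5, 7.42 and 11.5 CPM in IGFBP2 overexpression cells (log2 fold change -1.43, adjusted p = 0.0673). CCND1, the cyclin that drives entry into the cell cycle and a late target of ERK and AP-1, was at 150, 133 and 94.2 CPM in control and 267, 272 and 219 CPM in IGFBP2 overexpression cells (log2 fold change 1.02, adjusted p = 0.106). In each of these 3 genes, named for their small p-values, the groups did not overlap, and replicate 3 of the activated cells lay with its own group. Over the 21 genes, groups without overlap were found in 4 with the activated cells higher, DUSP9 among them, and in 1 with them lower. The shares over all genes were 9.43% and 8.61%. The log2 fold change of DUSP14 was 0.70 (adjusted p = 0.151).

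Further up the pathway, 30 of 32 genes of the MAPK cascades were measured, none passed the threshold, 2 were higher and none lower at an unadjusted p-value under 0.05 (a share near the 6.88% of all genes that were higher), and the median log2 fold change was 0.0054. The smallest p-values were those of MAPK9 (0.50), MAP2K1 (0.68), MAPK8 (0.37) and RPS6KA1 (0.39), with log2 fold changes in brackets and an adjusted p of at least 0.305. Of 11 SRF and ETS regulators, all measured, none passed (1 did, lower, with a mean-variance trend and with limma voom), 2 were lower at an unadjusted p-value under 0.05 (beside 6.12% of all genes), and the median was -0.23. EP300, a coactivator and histone acetyltransferase, was at 165, 176 and 173 CPM in control and 93.2, 81.7 and 125 CPM in IGFBP2 overexpression cells (log2 fold change -0.79, adjusted p = 0.162). MRTFA, an actin-regulated partner of SRF, had a log2 fold change of -0.77 (adjusted p = 0.286), SRF one of -0.35 and CREBBP one of -0.27.

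Textbook targets of AP-1 were measured for 11 of 27 genes and none passed, while 2 did, both higher, with a mean-variance trend, with limma voom and with a pseudocount of 5. At an unadjusted p-value under 0.05, 4 were higher and 2 lower, beside 6.88% and 6.12% of all genes, and the median log2 fold change was 0.31. HMOX1, a heme-degrading enzyme that other stress factors also control, had a log2 fold change of 1.74 (adjusted p = 0.0946). The log2 fold changes of DST, a cytoskeletal linker, and TIMP1, an inhibitor of matrix metalloproteinases, were -0.56 and 0.60 (adjusted p = 0.236 and 0.239).

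Genes that heat and cell handling are known to raise were measured for all 12 listed, since immediate early genes respond to handling as well. Of these, 1 passed the threshold, where 0.629% of all genes did. At an unadjusted p-value under 0.05, 3 were higher and 1 lower, beside 6.88% and 6.12% of all genes, and the median log2 fold change was 0.25. HSPB1, a small heat shock protein, rose from 359, 273 and 422 CPM to 785, 864 and 890 CPM (log2 fold change 1.29, adjusted p = 0.0424), and it did not pass in 8 of 15 alternatives. HSPA1A (0.69), HSPA1B (0.90) and CRYAB (-2.68), given as log2 fold changes, did not pass, and CRYAB rests on 1 to 5 reads a library in the activated cells. CRYAB passed the authors' filter of 5 CPM in control only (means of 15.8 and 1.17 CPM), which set its direction. Summed over the 12 genes, of which HSP90AA1 was the most abundant, the level was 7950, 5381 and 7891 CPM in control and 8962, 9463 and 8152 CPM in IGFBP2 overexpression cells. The order of libraries seen in FOS and EGR1, with replicate 3 of the activated cells within the control range, held for 1 of the 12, DNAJB1, named after its values were seen. The part of handling in the values of the members was not tested.

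**Figure D5:**
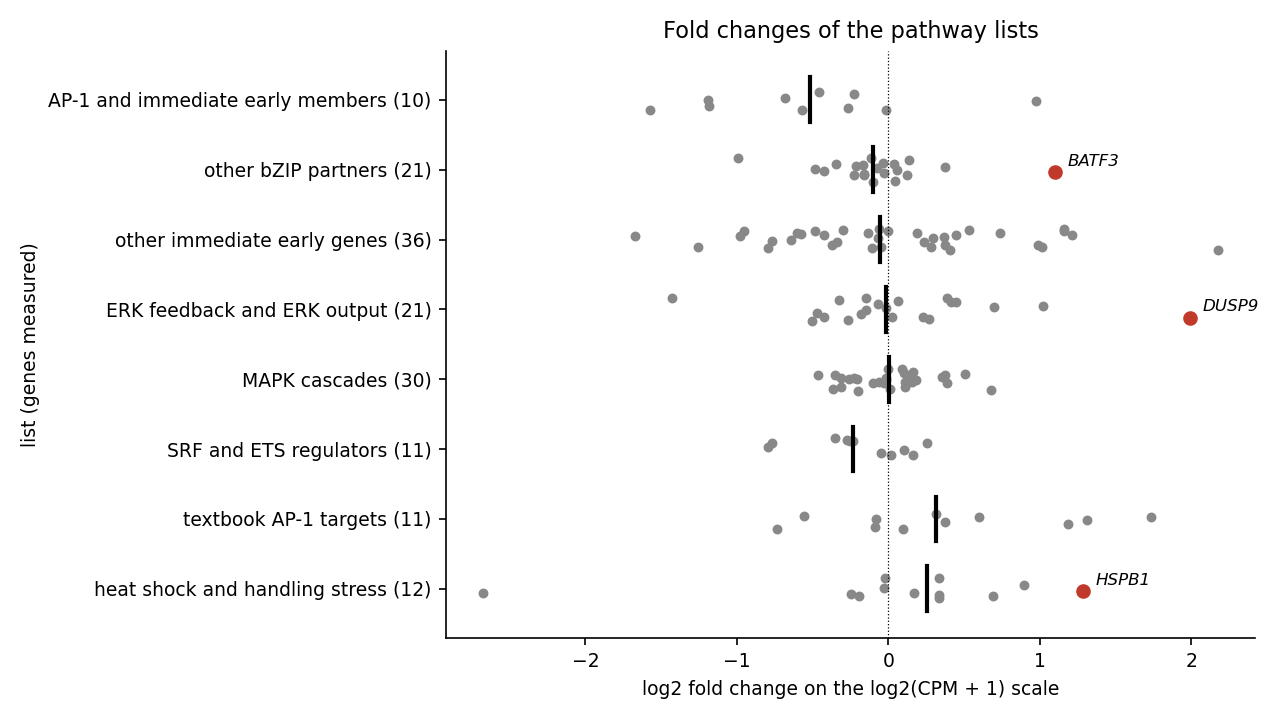
Log2 fold change of every measured gene (dot) in the members and 7 further lists, with the list's median as a black bar and genes with an adjusted p-value under 0.05 (limma) in red. BATF3, DUSP9 and HSPB1 are the genes in red, and the members' median of -0.51 is the lowest of the 8 medians. BATF3 and DUSP9 passed the authors' filter of 5 CPM only through the activated cells.

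The genes whose levels over the 6 libraries were most like those of JUNB and EGR1, the members with the smallest p-values, were sought among 8653 genes with a mean over 10 CPM. Closest to JUNB were MAN1B1, KPNA5, DDX17 and TOM1L2, with Pearson's r of 0.995, 0.994, 0.994 and 0.992 on the log2(CPM + 1) scale. Closest to EGR1 were PPP1R3F, AFG3L2, TOB2 and SYT12, with r of 0.994, 0.992, 0.992 and 0.991. The likeness is in shape and not in size, since AFG3L2 only ran from 227 to 247 CPM where EGR1 ran from 55.2 to 250 CPM. With 6 libraries and 8653 genes, such values describe these libraries only.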

How the data were processed

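Total RNA was sequenced from the 3′ end (QuantSeq) in 3 control and 3 IGFBP2 overexpression libraries. The authors trimmed the reads, aligned them with STAR to hg38, counted them per gene with HTSeq 0.9.1, normalized with edgeR and kept genes averaging over 5 CPM in at least 1 condition. The authors deposited log2(CPM + 1). The spacing of low values gave back each library's read numbers (100% whole within 0.02 of a read), and 0 columns were left unused. Symbols and positions came from GENCODE 44 (GRCh38, 10462 of 10487 identifiers matched).

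The members and lists were chosen with earlier results of these data known. A limma model (3.58.1, R 4.3.3) of condition was fitted to every gene's log2 values, followed by Benjamini-Hochberg adjustment over the 10487 genes at a threshold of 0.05. The procedure was tested on simulated data. Lists are given as counts and medians. Named genes are the members, IGFBP2, the markers, the 4 smallest p-values and any gene past the threshold in each list, and the closest profiles, and 1 gene of these is not reported here. Fold changes on this scale understate changes of low genes. Alternatives changed the scaling, the variance model, the pseudocount, the low-value filter or a replicate block, or left out 1 library. The exact permutation test used Python 3.11.15. Intervals are 95%.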

Additional observations from a re-analysis of the deposited data

How the results depend on the processing

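The number of differing genes over the whole table, 66, was 160 with a mean-variance trend, 135 with limma voom on recovered reads, 37 at a pseudocount of 0.1 and 129 at a pseudocount of 5, and from 12 to 79 with one library left out (12 without IGFBP2 overexpression replicate 1, 13 without its replicate 2 and 17 without the third control). A replicate block gave 55 genes and 0 members, with 7 members and 1438 of 10487 genes at an unadjusted p-value under 0.05 (4 and 1364 without it), and adjusted p-values of 0.113 for FOS and 0.0726 for DUSP1. Libraries with the same number deviated from their group means with correlations of 0.17, -0.064 and 0.084. Whether a number marks a shared origin was not tested beyond this. The members passing the threshold numbered from 0 to 1 with one library left out, the 1 being EGR1 (-1.76) without IGFBP2 overexpression replicate 3, and 0 under the other 14 alternatives. FOSL2 changed sign with upper quartile scaling (0.0088) and ranged from -0.055 to 0.028 with one library left out, and DUSP6 ranged from -0.37 to 0.045. The remaining 144 of 150 combinations of a member and an alternative kept the direction and the side of the threshold. FOSL1 ranged from 0.47 to 1.55, JUN from -0.41 to -0.14, FOS from -2.01 to -0.68 and DUSP1 from -2.35 to -0.75, the ends of the latter coming without control replicate 2 and without control replicate 3. IGFBP2 passed under all 15 alternatives (2.35 to 2.97). Of the ERK inhibitors and outputs (1 passed) 3 passed with a mean-variance trend and 0 without IGFBP2 overexpression replicate 1, and of the heat and handling genes (1 passed) 4 passed with that trend and 0 with a replicate block. Other uncalled log2 fold changes that moved by over 1.5 times with one library left out were ATF4 (-0.63 to -0.26), MAFG (0.19 to 0.50), MAP2K1 (0.36 to 0.87), RPS6KA1 (0.24 to 0.47), MRTFA (-0.96 to -0.46), SRF (-0.51 to -0.20) and CREBBP (-0.39 to -0.10). The cause of these shifts was not tested. Values resting on few reads, such as those of DUSP1, FOS, BATF3, DUSP9, CXCL8 and CRYAB, carry a large counting error, and intervals cover the spread between 3 libraries a group.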
